A study of Mus musculus with 8 samples.

Results

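Circadian clock genes were followed through 4 states of mouse embryonic fibroblasts, primary connective tissue cells from the embryo. The 10 genes were Arntl (also called Bmal1), Clock, Per1, Per2, Per3, Cry1, Cry2, Nr1d1, Nr1d2 and Dbp. They were chosen by name, with earlier results of these data known. Each matched 1 row of the deposited tables, and they are 10 of 54838 gene rows. Polyadenylated RNA was sequenced from 8 libraries in 4 groups of 2. The groups were n-Sen cells kept for 24 h in alkaline medium, n-Sen cells kept for 24 h in control medium, n-Sen cells without that step, and proliferating cells. n-Sen cells had been made senescent with nutlin3a, which frees p53 from MDM2. RO3306, which blocks CDK1, first stopped the cells in G2. Nutlin3a was added while RO3306 was still present and then continued alone for 48 h. A further 14 days with BI-2536 (100 nM), which blocks PLK1, served to clear cells that still divided. All 3 n-Sen groups share this history, and the labels give none of these agents for the proliferating cells. All cells grew with serum at low oxygen. Both adjusted media were buffered with HEPES, and their pH values are not given in the sources used here.

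The mammalian clock is a transcriptional feedback loop that runs in nearly every cell, fibroblasts included. The proteins BMAL1 (from Arntl) and CLOCK bind E-box elements and switch on the Per, Cry, Nr1d and Dbp genes. PER and CRY proteins then return to the nucleus and inhibit BMAL1 and CLOCK. In a second loop REV-ERB alpha and beta (from Nr1d1 and Nr1d2) repress Arntl through RORE elements, where ROR proteins activate it, and DBP drives genes through D-boxes, which NFIL3 represses. Transcripts of a running clock rise and fall over the day, and those of Arntl peak when those of Dbp and Nr1d1 are low. The labels record no hour of harvest and no clock synchronisation. Whether the cells of a library shared a phase, and which, is therefore not known, and a level may be an average over mixed phases.

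Levels are CPM, counts scaled to the size of each library, with 1 scaling over all 8 libraries. Total counts ran from 40608517 to 54183060 per library, and replicates of a group differed from each other beyond counting noise. Nothing in the labels says that replicates came from separate cultures, so p-values measure the spread between these libraries, which may be technical. Mki67, a marker of cycling cells, lay between 6.02 and 9.88 CPM in the n-Sen libraries and at 410 and 427 CPM in the proliferating ones. The 10 fibroblast markers summed to between 16200 and 18800 CPM in the n-Sen groups and to 11800 and 11500 CPM in proliferating cells. Col1a1, Col1a2 and Vim make up most of that sum. Against proliferating cells, 34.0% of all genes tested were higher in n-Sen cells and 33.1% lower (edgeR, adjusted p under 0.05). Of the 10 fibroblast markers, 8 were higher and 2 lower. The 2 were Thy1 and Pdgfra, and Pdgfra had 10.7 and 8.91 CPM in n-Sen cells, against 84.5 and 91.3 CPM in proliferating cells. The 12 macrophage markers (such as Adgre1, Csf1r and Lyz2) summed to 1010 CPM in both alkaline libraries, to 1150 and 1090 CPM in control medium, to 1120 and 1190 CPM in n-Sen cells, and to 54 and 48.8 CPM in proliferating cells. None of these macrophage markers was at 0 in all libraries. The 6 epithelial and mesothelial markers summed to between 5.52 and 7.14 CPM in the n-Sen groups, against 79 and 74.3 CPM in proliferating cells. Krt19 made up most of the latter, at 59.7 and 52.2 CPM, and Epcam and Cdh1 were at most 0.119 CPM there. Of those tested, only Cdh1 was higher in n-Sen than in proliferating cells, at 0.214 and 0.333 CPM against 0 and 0.0398 CPM. The 6 endothelial markers summed to between 6.7 and 8.52 CPM in the n-Sen groups, against 33.5 and 27.1 CPM in proliferating cells. Kdr made up most of the latter, at 24.4 and 20.8 CPM, and Pecam1 and Cdh5 were at most 0.239 CPM there. Of those tested, only Vwf was higher in n-Sen than in proliferating cells, at 0.836 and 1.17 CPM against 0.528 and 0.398 CPM. These 2 sums thus rest mainly on 1 gene each. In these bulk samples, fewer cells of a type and less RNA per cell cannot be told apart.

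Clock elements in the promoters of these genes are shown because the proteins of the loop act on one another's genes through them. Promoter windows of 250 bases before to 50 after a start, from RefSeq on GRCm38.p6 (the build also called mm10), were found for 9 of the 10 genes, and Per2 is named only. Both strands were searched for the E-box CACGTG, its variant CACGTT (the E-prime box), the D-box as TTATGTAA or TTATGCAA, and the RORE core as TAGGTCA or TGGGTCA. None of these motifs contains another. Over all 32851 windows, 7.15% hold the E-box, 4.68% the E-prime box, 1.66% the D-box and 6.45% the RORE core, and 18.6% hold at least 1 of them. The 9 genes have 13 windows, 3 for Clock, 2 each for Arntl and Per1 and 1 for each other gene. Of these 13 windows 6 hold at least 1 motif, each in a different gene. Each sequence runs 5′ to 3′ along the gene, and capitals mark the motif.
Per1 E-box, chr11:69098763-69098808, plus strand: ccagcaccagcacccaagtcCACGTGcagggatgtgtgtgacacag
Per1 D-box, chr11:69098905-69098948, plus strand: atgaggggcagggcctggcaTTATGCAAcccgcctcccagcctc
Per3 distal D-box, chr4:151044843-151044890, minus strand: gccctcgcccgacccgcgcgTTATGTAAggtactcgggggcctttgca
Per3 proximal D-box, chr4:151044796-151044843, minus strand: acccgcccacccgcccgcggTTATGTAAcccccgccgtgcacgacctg
Cry1 E-box, chr10:85185089-85185134, minus strand: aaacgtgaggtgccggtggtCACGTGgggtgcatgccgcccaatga
Cry1 E-prime box, chr10:85185108-85185153, minus strand: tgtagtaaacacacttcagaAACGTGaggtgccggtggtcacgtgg
Cry2 E-prime box, chr2:92434210-92434255, minus strand: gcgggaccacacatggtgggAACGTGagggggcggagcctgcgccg
Nr1d1 E-prime box, chr11:98775380-98775425, minus strand: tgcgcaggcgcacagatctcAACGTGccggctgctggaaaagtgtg
Arntl RORE core, chr7:113207530-113207558, plus strand: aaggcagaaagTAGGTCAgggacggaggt
The E-prime boxes of Cry1, Cry2 and Nr1d1 read CACGTT on the other strand. The Arntl motif begins at base 31 after one of its annotated starts, and the other motifs lie before the start. The windows of Clock, Nr1d2 and Dbp hold none of these letters, which says nothing of sites outside 300 bases. A match of letters is a description and not a site of binding.

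Per kilobase of exon, the scale on which genes can be compared, Nr1d1 and Nr1d2 stood at the top of the 10 in every group, and Per3 and Per2 at the bottom. Nr1d1 averaged 12.6 ± 0.123 CPM per kilobase in alkaline medium, 12.6 ± 0.572 in control medium, 12.2 ± 1.13 in n-Sen cells and 6.78 ± 0.293 in proliferating cells (SD, n = 2 each). Per2, the lowest throughout, averaged 0.767 ± 0.0852 CPM per kilobase in alkaline medium, 0.875 ± 0.184 in control medium, 0.766 ± 0.113 in n-Sen cells and 0.418 ± 0.0579 in proliferating cells. Between these ends Arntl and Dbp changed their place. Arntl averaged 7.76 ± 0.148 CPM per kilobase in alkaline medium, 4.27 ± 0.227 in control medium, 3.54 ± 0.0561 in n-Sen cells and 5.08 ± 0.00603 in proliferating cells. It was above Clock in alkaline medium (Clock 5.64 ± 0.381) and below it in control medium and n-Sen cells, and in proliferating cells (Clock 5.03 ± 0.306) their difference was within the spread. Dbp averaged 1.22 ± 0.304 CPM per kilobase in alkaline medium, 2.07 ± 0.0761 in control medium, 3.59 ± 0.0431 in n-Sen cells and 0.657 ± 0.251 in proliferating cells. In n-Sen cells it lay within the spread of Arntl, and in the other 3 groups only Per3 and Per2 were lower. The lowest deposited counts among the 10 were 72.5 for Dbp and 92 for Per2, both in proliferating libraries.

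**Figure D1:**
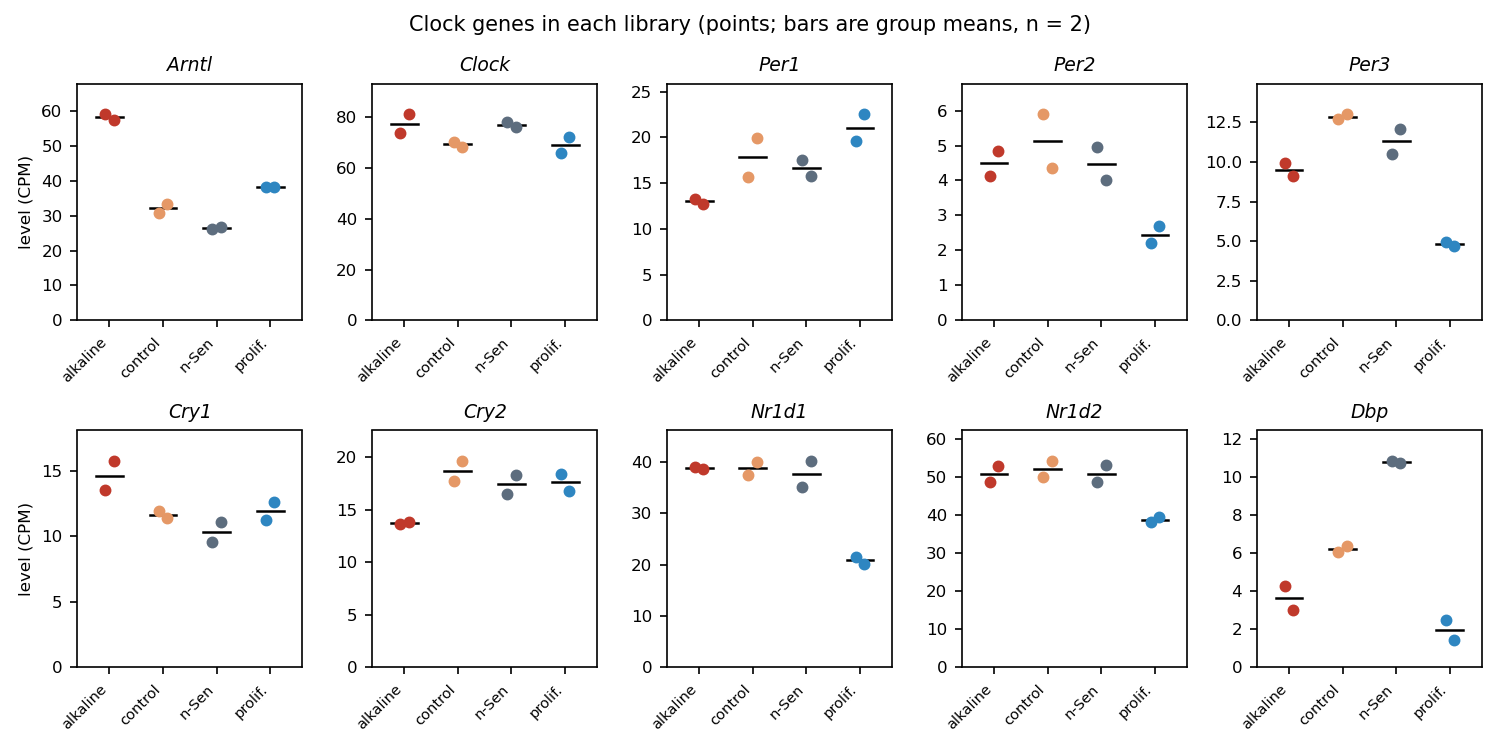
Level in CPM (y axis, from 0, a scale of its own per gene) of each of the 10 clock genes in the 8 libraries. Points are libraries and bars are group means (n = 2), with alkaline medium, control medium, n-Sen and proliferating cells from left to right. Arntl is highest in alkaline medium at 59.1 and 57.6 CPM and Dbp in n-Sen cells at 10.8 and 10.7 CPM. Nr1d1, Nr1d2, Per2, Per3 and Dbp are lowest in proliferating cells.

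The study asked which transcripts of senescent cells change in an alkaline environment. Between alkaline and control medium Arntl and Cry1 rose, while Per1, Per3, Cry2 and Dbp fell. The largest moves were those of Arntl and Dbp, in opposite directions, and the REV-ERB genes Nr1d1 and Nr1d2 did not pass the test. At an adjusted p under 0.05 (edgeR, quasi-likelihood test, p-values adjusted by Benjamini-Hochberg over all genes), 2 of the 10 genes were higher and 4 lower. Of all 19129 genes tested, 9.58% were higher and 10.4% lower, 20.0% in either direction. The share among the 10 was above that background, but the 10 were chosen with earlier results of these data known. The excess is therefore a description and not a test. The libraries did not overlap between groups for 7 of the 10 genes, against 56.7% of all genes. The median log2 fold change of the 10 was -0.12, against -0.0093 over all genes, and the median absolute value was 0.38, against 0.182.

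Of the activators, Arntl (chromosome 7, 113207465 to 113314126) had 59.1 and 57.6 CPM in alkaline medium, against 30.9 and 33.4 CPM in control medium. Both alkaline libraries stood well above both control libraries and above every library of the other groups. The log2 fold change was 0.85 ± 0.0665 (SE), a 1.81-fold rise (adjusted p = 1.59e-09), and 7.80% of tested genes moved at least as far. Clock (chromosome 5, 76209868 to 76304792), whose protein pairs with BMAL1, had 73.7 and 81.1 CPM in alkaline medium, against 70.1 and 68.4 CPM in control medium. These libraries did not overlap, but the difference of 0.15 ± 0.0585 did not pass (adjusted p = 0.0678, 95% interval of the log2 fold change 0.03 to 0.28). It did pass without alkaline replicate 1 (0.22, adjusted p = 0.0246).

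Of the Per repressor genes, Per1 (chromosome 11, 69095217 to 69109960), which also responds fast to hormones and serum, had 13.3 and 12.7 CPM in alkaline medium, against 15.7 and 19.9 CPM in control medium. Its log2 fold change was -0.46 ± 0.113 (adjusted p = 0.00489), with alkaline libraries below both control ones, which were far apart. Per3 (chromosome 4, 151003652 to 151044665), the period gene least needed for rhythms in the mouse, had 9.94 and 9.10 CPM in alkaline medium, against 12.7 and 13.0 CPM in control medium. It fell by 0.44 on the log2 scale (SE 0.115, adjusted p = 0.00697), and its groups did not overlap. Per2 (chromosome 1, 91415982 to 91459324), a core repressor, had 4.14 and 4.84 CPM in alkaline medium, against 5.89 and 4.36 CPM in control medium. Its groups overlapped and it did not pass, with a 95% interval of the log2 fold change from -0.56 to 0.17. The calls of Per1 and Per3 each depended on a library: Per1 had -0.27 and an adjusted p of 0.170 without control medium replicate 2, and Per3 -0.38 and 0.0525 without alkaline replicate 2.

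The cryptochrome genes, whose proteins are the main inhibitors of BMAL1 and CLOCK, moved apart. Cry1 (chromosome 10, 85131700 to 85185064) had 13.5 and 15.7 CPM in alkaline medium, against 11.9 and 11.4 CPM in control medium, a log2 fold change of 0.32 ± 0.111 (adjusted p = 0.0472). Cry2 (chromosome 2, 92403646 to 92434043) had 13.6 and 13.8 CPM in alkaline medium, against 17.7 and 19.6 CPM in control medium, and fell by 0.45 on the log2 scale (SE 0.0994, adjusted p = 0.00184). Neither gene had overlapping groups. The rise of Cry1 sat at the threshold: it did not pass without control medium replicate 1 (0.345, adjusted p = 0.0750), control medium replicate 2 (0.29, 0.155) or alkaline replicate 2 (0.20, 0.400), nor in DESeq2 (adjusted p = 0.164), without the low-count filter (0.0528) or in a fit of all 8 libraries (0.0711). Cry2 passed under all 10 alternatives, with adjusted p up to 0.0265.

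In the second loop, Nr1d1 (chromosome 11, 98767932 to 98775333) had 39.1 and 38.6 CPM in alkaline medium, against 37.5 and 40.0 CPM in control medium. Nr1d2 (chromosome 14, 18204054 to 18239127) had 48.8 and 53.0 CPM in alkaline medium, against 50.1 and 54.2 CPM in control medium. Libraries of both genes overlapped between the groups, and neither passed. The 95% interval of the log2 fold change was -0.15 to 0.14 for Nr1d1 and -0.18 to 0.09 for Nr1d2. The output gene Dbp (chromosome 7, 45705088 to 45710203), a D-box activator, had 4.29 and 3.00 CPM in alkaline medium, against 6.03 and 6.35 CPM in control medium. It was lower in both alkaline libraries, with a log2 fold change of -0.78 ± 0.178 (adjusted p = 0.00254), and passed under all 10 alternatives with log2 fold changes between -1.05 and -0.54.

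**Figure D2:**
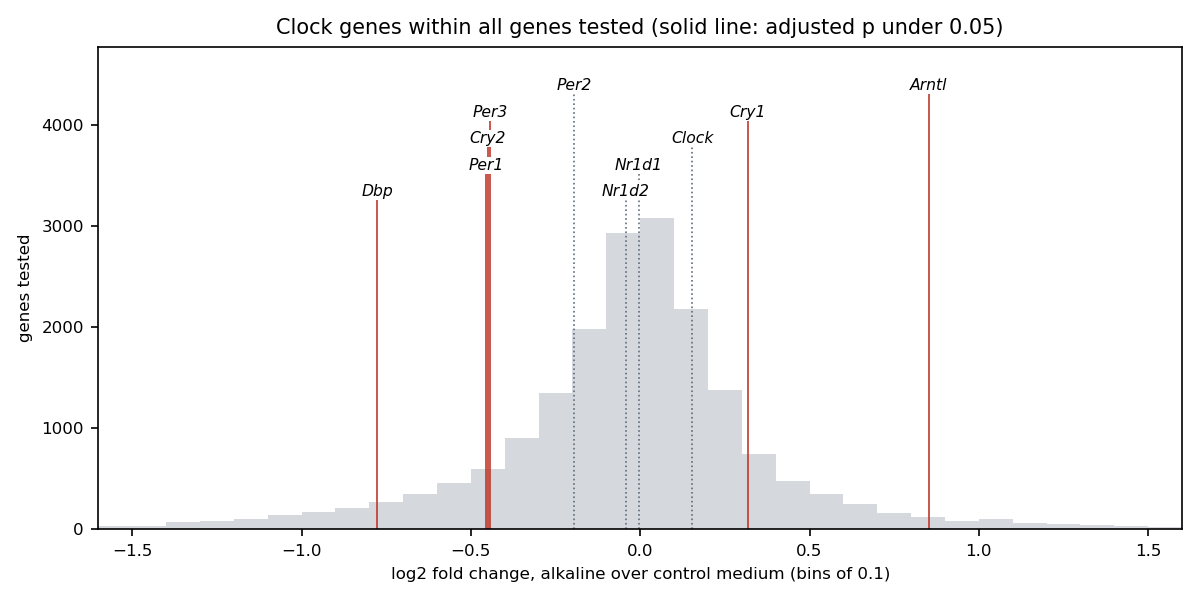
Histogram of log2 fold changes, alkaline over control medium (x axis, bins of 0.1), of the 19129 genes tested (y axis, number of genes), with a line at each clock gene. Solid lines passed an adjusted p of 0.05. Genes beyond the ends of the axis are not drawn. Arntl at 0.85 and Dbp at -0.78 lie in the tails, Per1, Per3 and Cry2 lie close together near -0.45, and Nr1d1 and Nr1d2 lie at the centre.

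Some of these genes overlap others in the GENCODE annotation, and the strand setting of the counting is not given in the sources used here. Nr1d1 shares 8.55% of its exon length with Thra on the opposite strand, Dbp 18.0% with Sphk2, Cry2 4.67% with D930015M05Rik and Arntl 0.44% with Gm45355. Thra, a thyroid hormone receptor gene, had 36.7 and 37.9 CPM in alkaline medium, against 47.6 and 48.1 CPM in control medium, and fell by 0.37 on the log2 scale (SE 0.0655, adjusted p = 0.000217). Sphk2, a sphingosine kinase gene, did not pass in this comparison (-0.05 ± 0.0727), with 35.7 and 35.6 CPM in alkaline medium, against 34.9 and 38.6 CPM in control medium. Gm45355, an antisense gene, had 2.35 and 1.96 CPM in alkaline medium, against 1.23 and 1.09 CPM in control medium, and rose by 0.89 ± 0.284 (edgeR, adjusted p = 0.0294), about as far as Arntl and from far fewer counts. Its call was lost without control medium replicate 2 (0.109) or alkaline replicate 1 (0.171) and in DESeq2 (0.145). D930015M05Rik, near 1 CPM, did not pass (-0.27 ± 0.401). Dbp and Nr1d1 carried fractional counts in 6 of 8 libraries each, and Arntl and Cry2 in 4 each. Clock, Nr1d2 and Per3, which share no exon bases with another annotated gene, carried them in 5, 2 and 1 libraries. How reads that fit several features were shared is not given in the sources used here.

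Of the other factors of the loop, from a list of 12 (10 tested), 1 rose and 2 fell in alkaline medium. Those called were 30% of the tested ones, against the 20.0% of all genes called. Bhlhe40, which encodes DEC1, a repressor that competes for E-boxes, had 135 and 133 CPM in alkaline medium, against 60.0 and 67.4 CPM in control medium. This rise of 1.07 ± 0.0568 (2.09-fold, adjusted p = 2.19e-12) was larger than that of Arntl, and 4.86% of tested genes moved at least as far. Its relative Bhlhe41 (DEC2) had 13.9 and 14.6 CPM in alkaline medium, against 13.7 and 14.2 CPM in control medium, and did not pass (0.02 ± 0.103). Tef, a D-box activator like Dbp, fell by 0.22 (SE 0.0636, adjusted p = 0.0151), with 44.4 and 43.8 CPM in alkaline medium, against 52.5 and 49.8 CPM in control medium. Arntl2, a paralog of Arntl, fell by 0.37 (SE 0.129, adjusted p = 0.0454), with 7.58 and 7.53 CPM in alkaline medium, against 10.3 and 9.13 CPM in control medium. The call of Tef was lost without control medium replicate 1 (adjusted p = 0.121) or alkaline replicate 2 (0.0720), and that of Arntl2 without control medium replicate 1 (0.294) or either alkaline replicate (0.101 and 0.113). In DESeq2 neither passed (0.0537 for Tef and 0.193 for Arntl2), and Arntl2 also did not without the low-count filter (0.0505) or in a fit of all 8 libraries (0.0832).

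The ROR gene Rora, an activator of Arntl, had 44.1 and 42.4 CPM in alkaline medium, against 42.7 and 46.5 CPM in control medium, and did not pass (-0.05 ± 0.0676). Nfil3, the D-box repressor, had 9.44 and 11.4 CPM in alkaline medium, against 8.60 and 7.66 CPM in control medium, and did not pass either (0.35 ± 0.131, adjusted p = 0.0616), but it did without control medium replicate 1 (0.44, adjusted p = 0.0433) or alkaline replicate 1 (0.48, 0.0147), or with the replicate block (0.35, 0.0381). Ciart and Cipc, which encode further repressors of CLOCK and BMAL1, did not pass (-0.04 ± 0.268 and 0.04 ± 0.0786). Npas2, a paralog of Clock, Rorb, and Hlf, a relative of Dbp, were near the limit of detection, between 0.0402 and 0.595 CPM in these 4 libraries. Npas2 and Rorb were tested and did not pass, and Hlf was below the count filter.

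**Figure D3:**
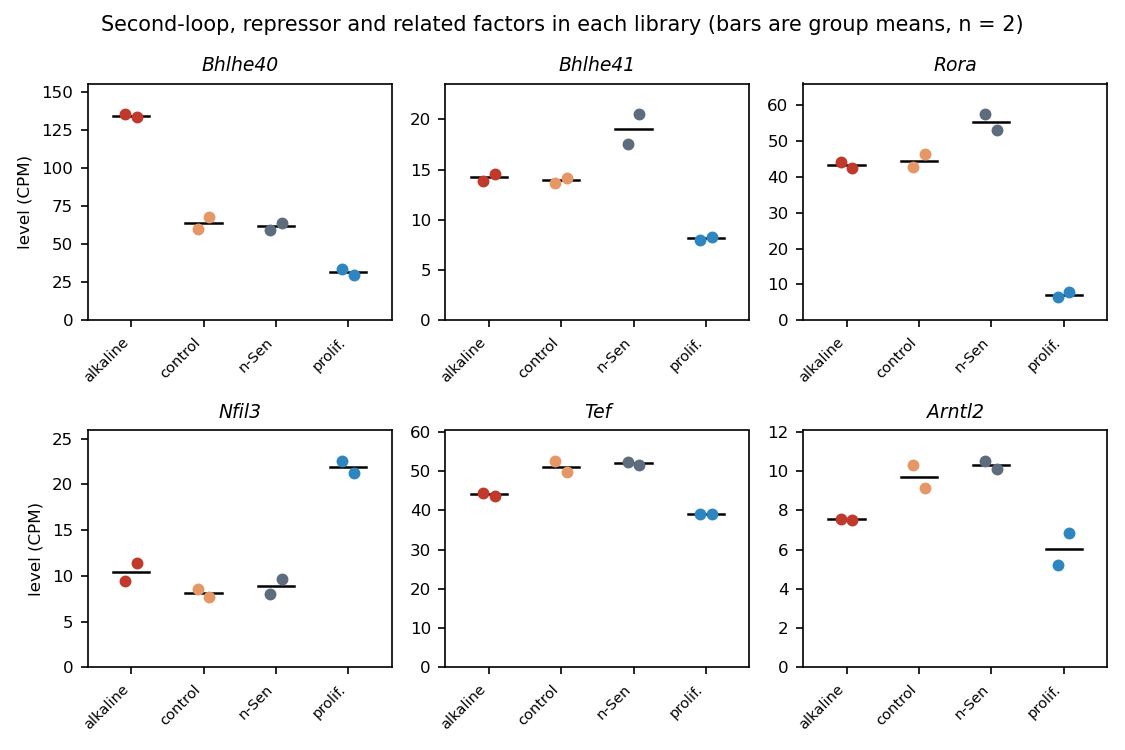
Level in CPM (y axis, from 0, a scale of its own per gene) of 6 further clock factors in the 8 libraries. Points are libraries and bars are group means (n = 2), with alkaline medium, control medium, n-Sen and proliferating cells from left to right. Bhlhe40 stands at 135 and 133 CPM in alkaline medium, above all other libraries. All 6 genes separate the 3 n-Sen groups from proliferating cells, with Nfil3 lower and the others higher in the n-Sen groups.

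Kinases, ligases and other factors that set the stability of PER and CRY proteins were higher in none and lower in 2 of 14 cases in alkaline medium (median log2 fold change 0.01). That is 14.3%, against the 20.0% of all genes called. These were Csnk1a1, a casein kinase gene (-0.19 ± 0.0413), and Usp2, a deubiquitinase gene (-0.45 ± 0.147), whose call was lost without either control medium replicate (adjusted p = 0.0555 and 0.137), without alkaline replicate 1 (0.135) or in DESeq2 (0.169). Of 13 cofactors, 2 were higher and none lower (median -0.05), 15.4% against the 20.0% of all genes. Among the 2 was the methyltransferase gene Kmt2a (0.20 ± 0.0494). Kmt2a did not pass without alkaline replicate 2 (adjusted p = 0.0969).

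Of 12 input genes, 1 was higher and 6 were lower (median -0.15), 58.3% against the 20.0% of all genes called. This list too was chosen with earlier results of these data known, so its share is only a description. Fkbp5, a target and chaperone partner of the glucocorticoid receptor, had 21.4 and 21.2 CPM in alkaline medium, against 9.46 and 8.95 CPM in control medium (1.21 ± 0.102). The receptor gene Nr3c1 fell by 0.25 (SE 0.0478). Sik1, a kinase gene that limits the response of the mouse clock to light, had 7.04 and 5.03 CPM in alkaline medium, against 11.1 and 9.83 CPM in control medium (-0.80 ± 0.150). Cirbp, which encodes a cold-induced RNA-binding protein, fell by 0.57 (SE 0.109) and Sik3, a kinase gene related to Sik1, by 0.25 (SE 0.0596). The other 2 lower genes, named here after their values were seen, were Creb1 (-0.22 ± 0.0739) and Tsc22d3 (-0.35 ± 0.0877), and both calls depended on the libraries. Creb1 did not pass without control medium replicate 2 (adjusted p = 0.288) or alkaline replicate 1 (0.278), in DESeq2 (0.133) or in a fit of all 8 libraries (0.0605). Tsc22d3 did not pass without control medium replicate 2 (0.1) or alkaline replicate 2 (0.0522).

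Of 7 output genes, none was higher and 2 were lower in alkaline medium, 28.6% against the 20.0% of all genes called. Pdk4, a kinase gene that restrains pyruvate use, had 20.7 and 21.7 CPM in alkaline medium, against 37.8 and 32.9 CPM in control medium, and fell by 0.74 (SE 0.0840). Por, the electron donor of cytochrome P450 enzymes, fell by 0.23 (SE 0.0477). Of the macrophage markers, 6 of 12 were lower and none higher in alkaline medium, and of the fibroblast markers 3 of 10 were higher (Col1a1, Col1a2 and Pdgfrb) and 7 lower. Against 20.0% of all genes, 50% of the macrophage markers and 100% of the fibroblast markers were called. Their part in the results on clock genes was not tested.

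The second question was which clock genes differed between n-Sen cells in control medium and n-Sen cells without the medium step. Arntl rose and Dbp fell, and the other 8 did not pass. These 2 of 10 genes stand against 11.1% of 20215 genes tested (6.18% higher and 4.96% lower). The libraries did not overlap for 5 of the 10, against 52.0% of all genes. These groups stand in different tables, so the table and the medium step cannot be told apart, and the control medium libraries also serve the comparison above. The median log2 fold change of the 10 was 0.10, against 0 over all genes.

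Dbp had 6.03 and 6.35 CPM in control medium, against 10.8 and 10.7 CPM in n-Sen cells. Its log2 fold change was -0.80 ± 0.182 (edgeR, adjusted p = 0.00553), and the 2 groups were far apart relative to their spread. Arntl had 30.9 and 33.4 CPM in control medium, against 26.3 and 26.9 CPM in n-Sen cells, a smaller difference of 0.27 ± 0.0715 (adjusted p = 0.0155). Clock had 70.1 and 68.4 CPM in control medium, against 78.1 and 76.0 CPM in n-Sen cells, and did not pass (-0.15 ± 0.0620, adjusted p = 0.132). The call of Arntl was lost without n-Sen replicate 1 (adjusted p = 0.125), n-Sen replicate 2 (0.0773) or control medium replicate 2 (0.176), and that of Dbp without n-Sen replicate 1 (0.0523) or control medium replicate 1 (0.0672), while their log2 fold changes stayed between 0.22 and 0.33 and between -0.83 and -0.76 over all 10 alternatives.

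The Per, Cry and Nr1d genes gave log2 fold changes between 0.03 and 0.19 here. The 95% intervals of Nr1d1 and Nr1d2 ran from -0.12 to 0.20 and from -0.11 to 0.18, and that of Per2, the gene of fewest counts, from -0.20 to 0.59. Of the 12 further loop factors, 11 were tested, none was higher and 2 were lower, 18.2% against the 11.1% of all genes called. Rora had 42.7 and 46.5 CPM in control medium, against 57.5 and 53.2 CPM in n-Sen cells (-0.31 ± 0.0784), and Bhlhe41 had 13.7 and 14.2 CPM, against 17.6 and 20.5 CPM in n-Sen cells (-0.45 ± 0.106). The call of Rora was lost without n-Sen replicate 1 (adjusted p = 0.167) or control medium replicate 1 (0.170), and that of Bhlhe41 without n-Sen replicate 2 (0.156) or control medium replicate 1 (0.0801). Bhlhe40 did not pass (0.05 ± 0.0678).

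Genes of the input list that rose were Fkbp5 (0.79 ± 0.103), Nr3c1 (0.36 ± 0.0502) and Creb1 (0.34 ± 0.0752), and none of the 12 fell. Those called were 25% of the list, against the 11.1% of all genes called. The output gene Pdk4 had 37.8 and 32.9 CPM in control medium, against 22.2 and 22.3 CPM in n-Sen cells (0.67 ± 0.0889), so its control-medium libraries were above those of both n-Sen and alkaline groups. Cofactors were higher in 3 of 13 cases (Ddx5 and Kdm5a among them) and turnover factors in 1 of 14 (Csnk1a1), with none lower. These shares are 23.1% and 7.14%, against the 11.1% of all genes called. The call of Csnk1a1 was lost without any 1 of the 4 libraries (adjusted p between 0.0623 and 0.186). That of Kdm5a was lost without n-Sen replicate 2 (0.361) or either control medium replicate (0.136 and 0.118), and that of Creb1 without n-Sen replicate 2 (0.0553) or control medium replicate 2 (0.0891). Of the macrophage markers, 1 of 12 was lower and none higher, 8.33% against the same 11.1%.

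**Figure D4:**
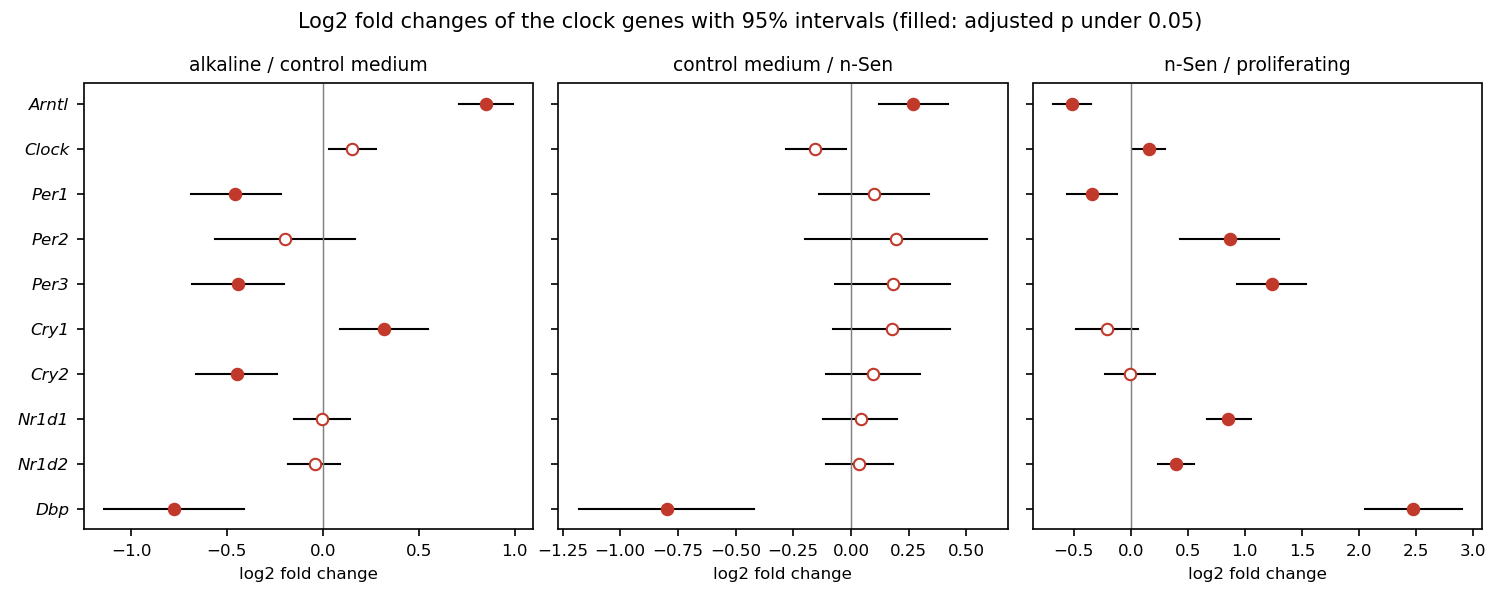
Log2 fold change (x axis, a scale of its own per panel) of the 10 clock genes (rows) with 95% intervals from the edgeR fits, for alkaline over control medium, control medium over n-Sen, and n-Sen over proliferating cells. Filled points passed an adjusted p of 0.05, which were 6, 2 and 8 of the 10. The panels of alkaline and control medium share the control medium libraries, and those with n-Sen cells share the n-Sen libraries.

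The third comparison set n-Sen against proliferating cells. Dbp, Per3, Per2, Nr1d1, Nr1d2 and Clock were higher in n-Sen cells and Arntl and Per1 lower. Senescence cannot be told apart here from RO3306, nutlin3a, BI-2536 and the time in culture. The 8 of 10 genes that passed (6 higher and 2 lower) stand against 67.1% of 19264 genes over the whole table, 34.0% rising and 33.1% falling, a background not far below the share among the clock genes. The libraries did not overlap for 9 of the 10, against 83.4% of all genes. The median log2 fold change of the 10 was 0.28, against 0.0015 over all genes, and the median absolute value was 0.46, against 0.641.

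Dbp moved furthest, with 10.8 and 10.7 CPM in n-Sen cells, against 2.50 and 1.43 CPM in proliferating cells. Its log2 fold change was 2.47 ± 0.201, a 5.55-fold rise (edgeR, adjusted p = 6.38e-09), and 9.10% of tested genes moved at least as far. Sphk2, which overlaps it, rose by 0.67 ± 0.0834, with 38.2 and 35.0 CPM in n-Sen cells, against 23.4 and 22.6 CPM in proliferating cells. Per3 had 10.5 and 12.1 CPM in n-Sen cells, against 4.92 and 4.72 CPM in proliferating cells (1.24 ± 0.143, adjusted p = 6.06e-07). Per2 had 4.95 and 4.02 CPM in n-Sen cells, against 2.21 and 2.69 CPM in proliferating cells (0.87 ± 0.207, adjusted p = 0.00132). None of these genes had overlapping groups, and all 3 passed under every one of the 10 alternatives.

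Nr1d1 had 35.2 and 40.1 CPM in n-Sen cells, against 21.5 and 20.2 CPM in proliferating cells (0.86 ± 0.0900, adjusted p = 1.85e-07). Nr1d2 had 48.8 and 53.2 CPM in n-Sen cells, against 38.2 and 39.5 CPM in proliferating cells (0.39 ± 0.0744, adjusted p = 0.00016). Both REV-ERB genes were thus lowest in proliferating cells, with no overlap. Thra, on the opposite strand of Nr1d1, rose by 1.17 ± 0.0830, with 49.3 and 49.4 CPM in n-Sen cells, against 23.5 and 20.5 CPM in proliferating cells. Arntl, which REV-ERB proteins repress, had 26.3 and 26.9 CPM in n-Sen cells, against 38.2 CPM in each proliferating library (-0.52 ± 0.0785, adjusted p = 1.58e-05). Its libraries lay close together within each group. Rora, which encodes an activator of Arntl, rose in the same comparison (2.94 ± 0.102). A link of Arntl to the REV-ERB genes or to Rora was not tested.

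Per1 had 17.5 and 15.8 CPM in n-Sen cells, against 19.6 and 22.5 CPM in proliferating cells (-0.34 ± 0.105, adjusted p = 0.00834). Clock had 78.1 and 76.0 CPM in n-Sen cells, against 66.0 and 72.0 CPM in proliferating cells (0.16 ± 0.0647, adjusted p = 0.0378). Both differences were small and rested on single libraries. Per1 did not pass without proliferating replicate 2 (-0.24, adjusted p = 0.0993) or n-Sen replicate 2 (-0.27, 0.0721). Clock did not pass without proliferating replicate 1 (0.10, 0.202), n-Sen replicate 1 (0.15, 0.155) or n-Sen replicate 2 (0.18, 0.0884), nor in DESeq2 (0.0539). Cry1 had 9.52 and 11.1 CPM in n-Sen cells, against 11.2 and 12.6 CPM in proliferating cells, and Cry2 had 16.5 and 18.3 CPM, against 18.4 and 16.8 CPM in proliferating cells. Neither passed, with 95% intervals of the log2 fold change from -0.48 to 0.06 and from -0.23 to 0.21.

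Against proliferating cells, 5 of the 12 further loop factors rose, 2 fell and 4 did not pass, with 1 below the count filter. Those called were 63.6% of the tested ones, against the 67.1% of all genes called. Rora had 57.5 and 53.2 CPM in n-Sen cells, against 6.48 and 7.87 CPM in proliferating cells, the largest change of the list (2.94 ± 0.102, adjusted p = 6.07e-14). Bhlhe40 had 59.4 and 63.6 CPM in n-Sen cells, against 33.8 and 29.9 CPM in proliferating cells (0.95 ± 0.0773), and Bhlhe41 had 17.6 and 20.5 CPM, against 7.99 and 8.32 CPM in proliferating cells (1.22 ± 0.119). Nfil3 had 7.98 and 9.70 CPM in n-Sen cells, against 22.5 and 21.2 CPM in proliferating cells (-1.30 ± 0.117). Tef and Arntl2 rose by 0.42 ± 0.0693 and 0.76 ± 0.150, and Rorb, a neural relative of Rora at 0.515 and 0.296 CPM in n-Sen cells and 1.61 and 1.31 CPM in proliferating cells, fell by 1.85 (SE 0.409). Markers of other cell types moved between the same libraries. The macrophage markers were higher in 12 of 12 cases with a median log2 fold change of 4.30. Of the epithelial and mesothelial markers, 4 of 5 tested were lower and 1 higher (median -3.33), and of the endothelial markers 2 of 4 tested were lower and 1 higher (median -0.70). Their part in the results on clock genes was not tested.

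Cofactors were lower in 10 of 13 cases and higher in 1 (median -0.38), led by genes that also work at replication forks or in splicing. Calls covered 84.6% of cofactors, 83.3% of inputs, 85.7% of outputs and 78.6% of turnover factors. The share over all genes was 67.1%, with 34.0% higher and 33.1% lower. Timeless had 2.87 and 1.89 CPM in n-Sen cells, against 29.7 and 32.8 CPM in proliferating cells (-3.73 ± 0.150), and its partner Tipin fell by 2.15 (SE 0.0899). The RNA-binding cofactor genes Sfpq and Nono fell by 1.59 and 0.97 (SE 0.0556 and 0.0494). Input genes were higher in 3 of 12 cases and lower in 7 (median -0.37): Fkbp5 had 5.55 and 5.07 CPM in n-Sen cells, against 53.4 and 55.1 CPM in proliferating cells (-3.35 ± 0.0955), and Sik1 fell by 0.93 (SE 0.111). Of 7 outputs 2 were higher and 4 lower (median -0.96), among them the cell cycle genes E2f8 (-4.99 ± 0.185) and Wee1 (-1.50 ± 0.0876) and the NAD salvage gene Nampt (-1.18 ± 0.0767). Turnover factors were higher in 7 of 14 cases and lower in 4 (median 0.17), with the largest change in Prkaa2, a catalytic subunit of the energy sensor AMPK (2.70 ± 0.151).

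Across the 4 groups, the pattern of Arntl was most like those of Flrt2, Zfp9 and Tbc1d1 among 9735 other genes with a mean of at least 10 CPM. Likeness was the root mean square difference of centred log2 CPM over 8 libraries, which was 0.0963, 0.0989 and 0.111. Flrt2, for example, had 463 and 461 CPM in alkaline medium, 231 and 263 CPM in control medium, 247 and 233 CPM in n-Sen cells and 298 and 308 CPM in proliferating cells. Dbp, which is noisier at its low counts, was most like Synpo, Rcan2 and Mtss1, with differences of 0.249, 0.289 and 0.306. Synpo had 162 and 161 CPM in alkaline medium, 278 and 285 CPM in control medium, 413 and 373 CPM in n-Sen cells and 73.3 and 60.6 CPM in proliferating cells.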

How the data were processed

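The authors deposited 2 tables of expected counts per gene, raw estimates with fractions. The submitters' processing notes name the build mm10 and DESeq2 1.34.0, featureCounts (Subread 2.0.2), HISAT2 2.1.0 and fastp 0.23.2, and per the labels' protocols the libraries are poly(A) selected and strand-marked (dUTP). The annotation release and strand setting are not given in the sources used here. Per library, 32.7% to 33.7% of values above 0 were fractional, and they were rounded. Symbols, coordinates and exon lengths came from GENCODE vM21 (54723 of 54838 IDs named). Genes were kept with filterByExpr, scaled by TMM and tested in edgeR 4.0.16 (R 4.3.3), on the whole table and with Benjamini-Hochberg adjustment. Alkaline against control medium and n-Sen against proliferating cells were each fitted on their own 4 libraries, and control medium against n-Sen in a fit of all 8. The SE is the absolute log2 fold change divided by the square root of F, and 95% intervals use the fit's degrees of freedom. CPM use TMM factors over all 8 libraries. The procedure was also run on simulated data, with far fewer changed genes than were called in n-Sen against proliferating cells. No result here rests on that run. Named genes are the 10 clock genes, up to 4 higher and 4 lower called genes of smallest p per list and comparison, the loop factors, overlapping genes, and the 3 genes most like Arntl and Dbp. Members and lists were chosen with earlier results of these data known. Alternatives were DESeq2 1.42.0, its size factors, no filter, counts cut down to whole numbers, the replicate number as a block, another set of libraries in the fit, and each library left out. Some genes of the lists are counted but not reported here by name.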

Additional observations from a re-analysis of the deposited data

How the results depend on the processing

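Over 10 alternatives per comparison, 280 of 300 values of the 10 clock genes kept their direction or stayed uncalled on the same side of the threshold, 19 lost the call, 1 gained it and none of the called ones changed sign. In alkaline against control medium the genes called higher were 1 in DESeq2, without the low-count filter and in the fit of all 8 libraries, against 2, since Cry1 did not pass, and 1 to 3 on leaving out each library. Leaving out each library gave 4 to 7 called clock genes there, 6 to 7 in n-Sen against proliferating cells (1 to 2 of them lower) and 0 to 1 in control medium against n-Sen cells (0 to 1 in each direction). In that last comparison it gave 1181 to 1382 called genes (731 to 816 higher and 450 to 569 lower), against 2253, with 1 library fewer in the fit. Of the genes of the 5 further lists, 4 of 45 calls in n-Sen against proliferating cells, 6 of 16 in alkaline medium and 5 of 10 in control medium were lost under at least 1 alternative. The replicate numbers were not shown to pair the libraries (correlations of same-numbered deviations between -0.00403 and -0.000844), and with the replicate block 6, 2 and 8 clock genes were called in alkaline, control medium and n-Sen comparisons, the same numbers as without it. Depth limits Per2 and Dbp most, with at most 287 and 575.5 counts in a library.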
